A study of Mus musculus with 18 samples.

Results

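The genes described here are 9 precursors of neuropeptides made by sensory neurons: Npy, Gal, Adcyap1, Tac1, Calca, Calcb, Sst, Nppb and Nmb. They were taken by symbol from the deposited count table of 15730 genes, where all 9 were present and all 9 entered the test. RNA was sequenced from the dorsal root ganglia that feed the sciatic nerve, in C57BL/6 mice of 6 to 8 weeks, 24 h after surgery. The 18 samples form 6 groups of 3, and ganglia of 2 mice were pooled for each. Sciatic nerve injury was done with saline (SNA_Saline) or with 30 mM N-acetyl-cysteine, a thiol antioxidant (SNA_NAC). The sham procedure was done with saline (Sham_Saline) or with 13 mM hydrogen peroxide (Sham_H202, spelled here as in the labels). In DCA the dorsal columns of the spinal cord were injured, which cuts those central branches of ganglion neurons that run there. Which of the neurons this reached was not measured. LAM was the laminectomy alone. No transgene, deletion or strain difference separated the groups.

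Neuropeptides are cut from longer precursors in the secretory pathway, stored in large dense-core vesicles and released to act on G protein-coupled or, for natriuretic peptides, guanylyl cyclase receptors. In dorsal root ganglia, substance P and the calcitonin gene-related peptides mark many of the small neurons that respond to noxious heat, pressure and chemicals, while natriuretic peptide B and somatostatin mark neurons of the itch pathway. Galanin, neuropeptide Y and PACAP are known to be sparse in intact ganglia of rodents and to increase after peripheral nerve damage.

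Npy encodes neuropeptide Y and lies at chr6:49822710-49829507 on the plus strand of GRCm38, the build that the submitters' processing notes name as mm10. Gal encodes galanin and lies at chr19:3409915-3414544 on the minus strand. Adcyap1 encodes PACAP, the pituitary adenylate cyclase-activating peptide, and lies at chr17:93199017-93206537 on the plus strand. Tac1 encodes substance P and neurokinin A (chr6:7554879-7565834, plus strand). Calca encodes calcitonin and the alpha form of calcitonin gene-related peptide, and Calcb the beta form; both lie on chromosome 7, at chr7:114631478-114636357 on the minus strand and chr7:114718643-114723365 on the plus strand. Sst encodes somatostatin (chr16:23889573-23890958, minus strand), Nppb natriuretic peptide B (chr4:147985788-147987205, plus strand) and Nmb neuromedin B, a relative of bombesin (chr7:80902227-80905076, minus strand). In GENCODE M21 all 9 are protein-coding, and Nmb is the only 1 that overlaps another gene, Sec11a on the same strand, so some reads there may be ambiguous.

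The promoters of the 3 genes whose transcripts were called higher after nerve injury are shown. Each is the 250 bases before the RefSeq transcription start in GRCm38.p6, 5′ to 3′ on the gene's strand. The windows are chr6:49822460-49822709 (plus strand) for Npy, chr19:3414545-3414794 (minus strand) for Gal and chr17:93198767-93199016 (plus strand) for the upstream start of Adcyap1. Capitals mark matches to TGACG, the core of the cyclic AMP response element, on either strand.
Npy: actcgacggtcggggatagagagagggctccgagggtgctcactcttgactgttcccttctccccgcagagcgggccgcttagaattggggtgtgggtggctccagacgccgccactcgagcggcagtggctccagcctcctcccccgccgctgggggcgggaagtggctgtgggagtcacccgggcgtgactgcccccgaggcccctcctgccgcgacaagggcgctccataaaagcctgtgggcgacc
Gal: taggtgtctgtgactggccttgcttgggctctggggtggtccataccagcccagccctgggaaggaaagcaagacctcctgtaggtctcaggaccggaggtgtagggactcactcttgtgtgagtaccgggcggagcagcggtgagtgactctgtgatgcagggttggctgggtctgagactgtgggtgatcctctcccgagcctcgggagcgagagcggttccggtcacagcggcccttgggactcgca
Adcyap1: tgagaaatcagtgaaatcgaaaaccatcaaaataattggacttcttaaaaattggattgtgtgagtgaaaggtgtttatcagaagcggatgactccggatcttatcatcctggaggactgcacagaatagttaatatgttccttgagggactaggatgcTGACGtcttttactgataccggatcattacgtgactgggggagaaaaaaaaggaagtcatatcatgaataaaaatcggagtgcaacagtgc
RefSeq windows were at hand for 8 of the 9 genes, 9 windows in all because Adcyap1 has 2 starts. Windows were searched on both strands for the full cyclic AMP response element TGACGTCA, which contains TGACG on each strand, for TGACG, for the AP-1 motif TGANTCA and for the STAT motif TTCNNNGAA. The Npy and Gal windows held none of the 4 motifs, and the Adcyap1 window held TGACG at positions -91 to -87 from its upstream start. TGACG was present before 4 of the 8 genes, in 5 of the 9 windows; the 2 Adcyap1 windows overlap and hold 1 and the same site. Of 32841 mouse promoter windows of the same length, 17.8% held it. The full element stood in 1 window, that of Sst, against 1.55% of all windows. AP-1 and STAT matches were in 0 of the 9 windows, against 6.75% and 7.02% of all.

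For comparison, the matches in genes whose transcripts did not pass the test after injury are shown with their surroundings, 30 bases each. They are chr6:7554852-7554881 and chr6:7555006-7555035 for Tac1 (plus strand), chr7:114636405-114636434 for Calca (minus strand) and chr16:23890874-23890903 for Sst (minus strand).
Tac1, distal: tccctaaaattgCGTCAtttcgaacacaat
Tac1, proximal: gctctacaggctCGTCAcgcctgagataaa
Calca: gaagcacagaggTGACGcaatctgtctggg
Sst: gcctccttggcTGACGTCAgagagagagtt
The letters TGACG thus stood before the RefSeq starts of Adcyap1, which rose, and of Tac1, Calca and Sst, for which no change was called. By the GENCODE loci given above, Tac1 and Sst start further upstream. The proximal Tac1 stretch and the Sst stretch lie inside those loci. A match is a description of the sequence and not evidence that a factor binds there.

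**Figure D1:**
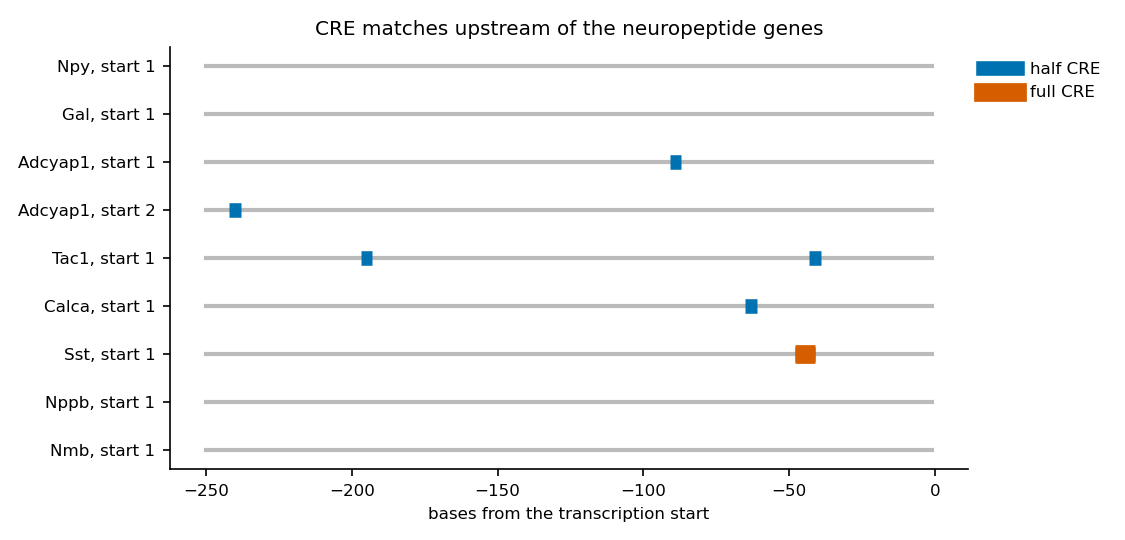
Positions of cyclic AMP response element matches in the 250 bases before each RefSeq start (x axis, bases from the transcription start); each grey line is a window, blue marks TGACG and orange the full TGACGTCA. Matches lie in the Adcyap1, Tac1, Calca and Sst windows, and the Npy, Gal, Nppb and Nmb windows have none.

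Total counts ran from 6472476 to 42435331 per sample, and values below are CPM, the counts scaled to library size and composition. The Sham_Saline samples differed most among themselves: replicate 1 was the lowest of its group for every gene of the 9 except Adcyap1, and replicate 2 carried summed skeletal muscle markers of 886 CPM against 63.8 and 4.82 in its group mates. Sensory neuron markers (8 of 8 present) summed to between 4973 and 7770 CPM in all samples, so the labelled tissue carried its defining transcripts. Of 4 markers of sympathetic neurons, which also make neuropeptide Y, only Phox2a was in the table, at 2.07 to 4.06 CPM. The results for Npy, Gal and Adcyap1 that rest on Sham_Saline are given with and without replicate 1.

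Per unit of transcript length, the 9 genes covered a wide range. Mean FPKM, the deposited value that divides by library size and transcript length, over the 18 samples was 1121 for Calca, at rank 22 of 15730 genes, 322 for Tac1, 149 for Nmb, 101 for Calcb and 92.1 for Adcyap1. Gal followed with 29.4, Nppb with 22.5, Npy with 6.34 and Sst with 3.67 FPKM. Npy, among the scarcest, had the widest range, with CPM 54.8 times as high in its highest as in its lowest sample, against 6.78 times for Gal, 5.58 times for Adcyap1, 3.03 times for Sst and 1.66 to 1.90 times for the other five. The order therefore changed with injury: mean FPKM of Adcyap1 was below that of Calcb in Sham_Saline (55.9 ± 7.45 against 98.2 ± 19.4, SD, n = 3) and above it in SNA_Saline (168 ± 24.2 against 105 ± 2.91).

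**Figure D2:**
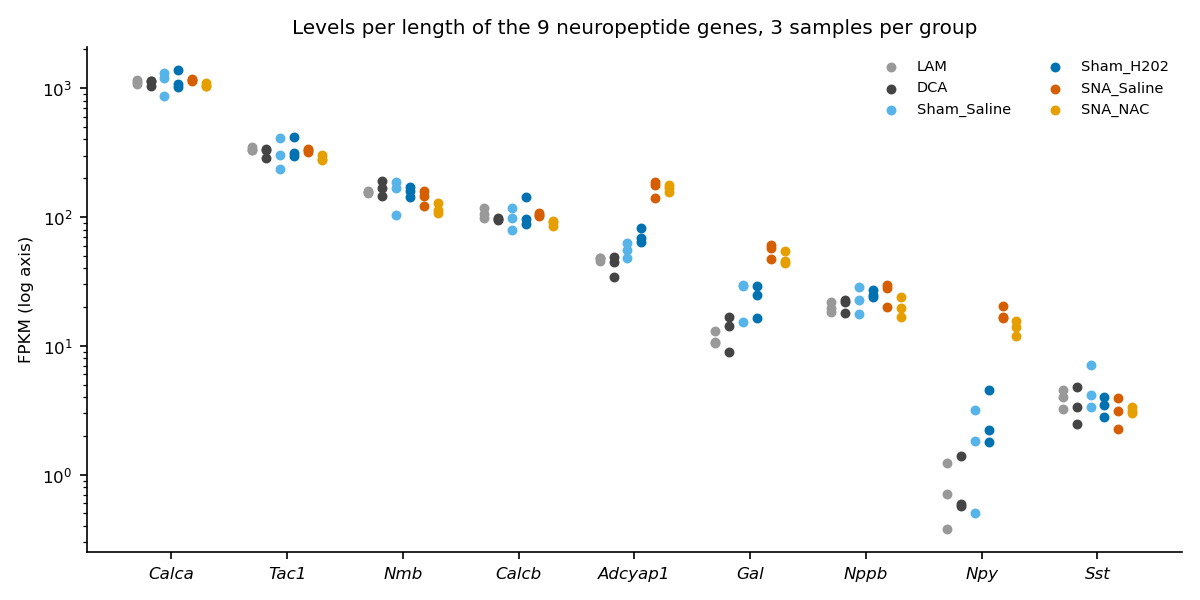
FPKM of each gene on a log axis, with 3 points per group, ordered by the mean over 18 samples. Calca lies between 871 and 1385 FPKM in all samples, while Npy, Gal and Adcyap1 stand highest in SNA_Saline and SNA_NAC.

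After sciatic nerve injury with saline, Npy, Gal and Adcyap1 rose against Sham_Saline, and for the other 6 genes no change was called. Npy rose 9.80-fold, Adcyap1 3.1-fold and Gal 2.29-fold. The 3 called of 9 stand against 2.73% of all genes called in either direction and 2.16% called higher. All 3 also had every injured sample above every sham sample, which held for 10.3% of all genes. Without Sham_Saline replicate 1 the same 3 were called, and so were 16.2% of all genes. In whole tissue, more cells with a transcript and more transcript per cell cannot be told apart.

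Npy read 0.286, 1.81 and 1.02 CPM in Sham_Saline replicates 1 to 3, from 6, 43 and 15 counts. In SNA_Saline it read 11.9, 9.73 and 9.55 CPM, from 180, 90 and 134 counts. The groups are far apart, and the counts show how thin the sham values are. The log2 fold change was 3.29 ± 0.45 (SE; edgeR adjusted p = 0.000356), and 2.83 without Sham_Saline replicate 1 (edgeR adjusted p = 0.000447).

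Gal read 10.96, 20.8 and 20.9 CPM in Sham_Saline, and 44.6, 34.6 and 40.8 CPM in SNA_Saline. The injured samples were all above the sham samples, of which replicate 1 lay within the range of the DCA samples. Its log2 fold change was 1.19 ± 0.24 (SE; edgeR adjusted p = 0.0108), and 0.94 without Sham_Saline replicate 1 (edgeR adjusted p = 0.0172). The call was lost without SNA_Saline replicate 1 (edgeR adjusted p = 0.0699) and when only the 6 samples of the contrast were fitted (edgeR adjusted p = 0.171).

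Adcyap1 read 115.9, 102.1 and 130.1 CPM in Sham_Saline, and 398, 386 and 293 CPM in SNA_Saline. Its sham samples were the tightest of the 3 genes, and Sham_Saline replicate 1 lay in the middle of its group. The log2 fold change was 1.63 ± 0.15 (SE, edgeR adjusted p = 9.92e-06). It stayed past the threshold in all 28 alternative fits, with values from 1.36 to 1.76. Among the 28, no filter and the threshold of 0.1 reused the main fit and could not lose the call. Without Sham_Saline replicate 1 the log2 fold change was 1.63 (edgeR adjusted p = 7.94e-05).

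**Figure D3:**
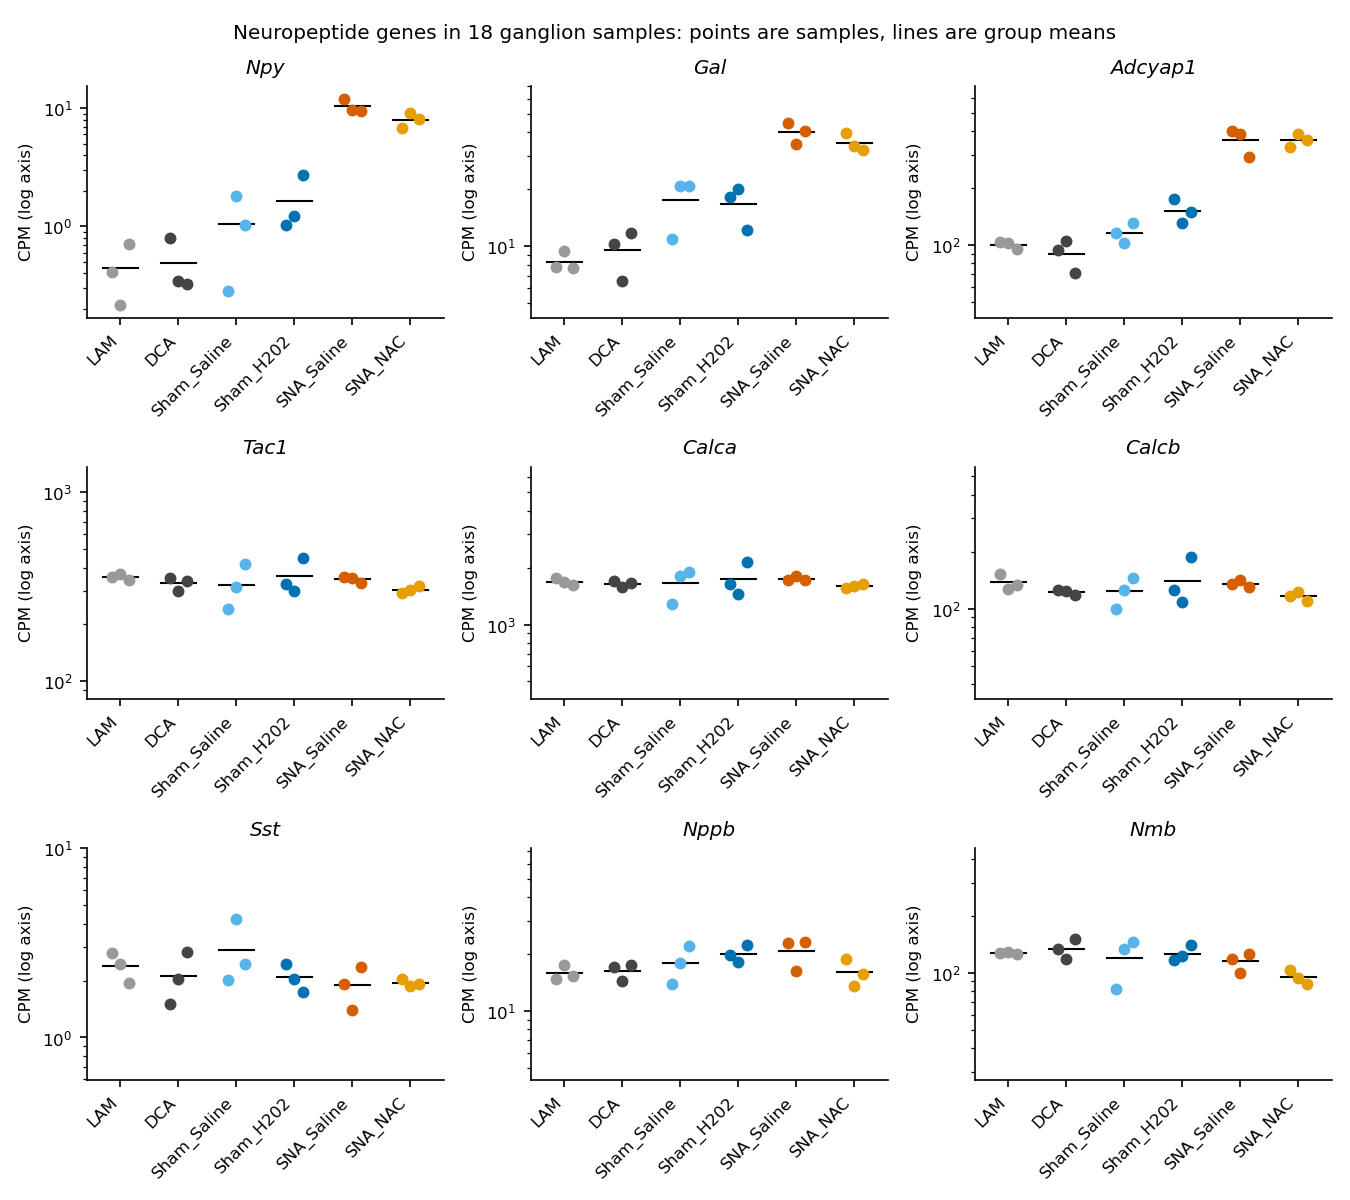
CPM of each gene on a log axis in every sample; points are samples, black lines group means, 3 samples per group. Npy, Gal and Adcyap1 stand apart in SNA_Saline and SNA_NAC, and the other 6 genes show no such step.

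The substance P and calcitonin gene-related peptide genes differed little between injured and sham ganglia. Tac1 read 243, 314 and 416 CPM in Sham_Saline and 357, 352 and 332 CPM in SNA_Saline, a log2 fold change of 0.10 (edgeR adjusted p = 0.723). Calca read 1285, 1804 and 1906 CPM against 1725, 1802 and 1719 CPM, a log2 fold change of 0.07 (95% interval -0.23 to 0.37; edgeR adjusted p = 0.776). For both genes the sham samples enclosed the injured ones. Calcb was 124 ± 23.4 CPM in Sham_Saline and 135 ± 5.96 CPM in SNA_Saline (SD, n = 3; log2 fold change 0.13, edgeR adjusted p = 0.636). The sign of these small values is not fixed: without Sham_Saline replicate 1, Tac1 was -0.073, Calca -0.085 and Calcb -0.0070, and with offsets for transcript length and GC share together Tac1 was -0.19 and Calca -0.012.

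The itch-pathway peptides and neuromedin B did not pass the test either. Sst had few reads, 11 to 101 counts per sample. It read 2.00, 4.25 and 2.44 CPM in Sham_Saline and 1.91, 1.41 and 2.35 CPM in SNA_Saline. Its log2 fold change of -0.61 had a 95% interval of -1.24 to 0.02 (edgeR adjusted p = 0.235), and the groups overlapped. Nppb was 17.9 ± 4.06 CPM in Sham_Saline and 20.7 ± 3.86 CPM in SNA_Saline (SD, n = 3; log2 fold change 0.21, edgeR adjusted p = 0.463). Nmb was 120 ± 33.3 and 115 ± 13.3 CPM (log2 fold change -0.06, edgeR adjusted p = 0.827), and its sign turned to 0.13 with offsets for transcript length and GC share. Over the other 6 genes, the lowest end of a 95% interval was -1.24, for Sst, and the highest 0.59, for Nppb. Intervals were narrower for Tac1 (-0.24 to 0.44), Calca (-0.23 to 0.37) and Nmb (-0.41 to 0.28). For each gene, changes within its own interval could not be told from none.

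**Figure D4:**
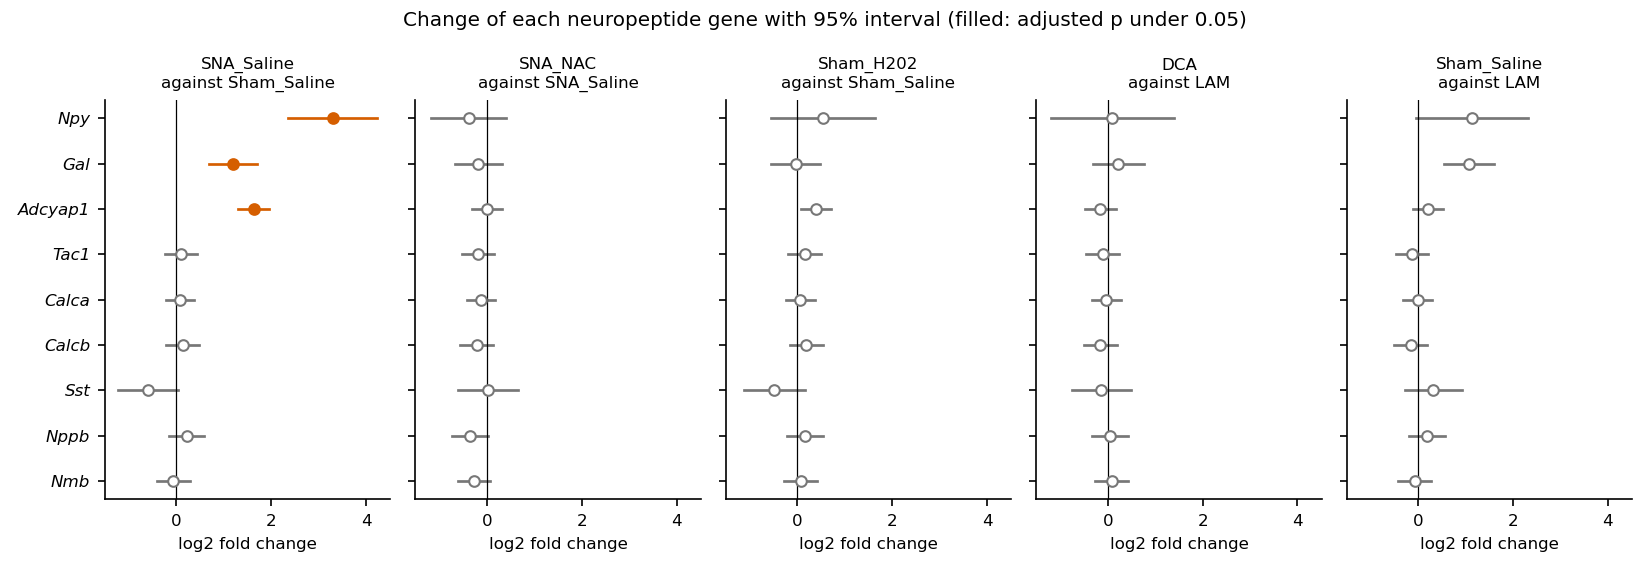
Log2 fold change (x axis) of each gene in 5 contrasts with its 95% interval; filled points have an edgeR adjusted p under 0.05. Filled points are Npy, Gal and Adcyap1 in SNA_Saline against Sham_Saline, at 3.29, 1.19 and 1.63.

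The makeup of the summed FPKM of the 9 genes moved accordingly. The Adcyap1 share was 3.18% ± 0.756 in Sham_Saline, 8.39% ± 1.17 in SNA_Saline and 9.26% ± 0.628 in SNA_NAC (SD, n = 3). Gal went from 1.35% ± 0.211 to 2.75% ± 0.356 with injury, and Npy from 0.0966% ± 0.0665 to 0.896% ± 0.101. Calca made up most of the sum in every group, with 62.7% ± 1.62 in Sham_Saline and 57.8% ± 1.37 in SNA_Saline. These shares were not tested, and a rise in 1 gene lowers the share of the rest.

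Injured ganglia given N-acetyl-cysteine also had higher Npy, Gal and Adcyap1 than Sham_Saline. Npy read 6.83, 9.14 and 8.05 CPM in SNA_NAC, Gal 39.5, 34.0 and 32.1 CPM, and Adcyap1 330, 385 and 358 CPM. All 9 of these values lie above every Sham_Saline value of the same gene, a separation that 11.5% of all genes showed. The 3 genes called higher of 9 stand against 2.47% of all genes called higher and 3.32% called in either direction in SNA_NAC against Sham_Saline. Log2 fold changes were 2.91 ± 0.44 for Npy (edgeR adjusted p = 0.000927), 1.01 ± 0.24 for Gal (edgeR adjusted p = 0.028) and 1.63 ± 0.15 for Adcyap1 (edgeR adjusted p = 1.01e-05; SE). The Gal call was lost with the replicate number as a block (edgeR adjusted p = 0.054), in a fit of those 2 groups alone (edgeR adjusted p = 0.187), in limma on log2(FPKM + 0.1) (limma adjusted p = 0.0542), and without SNA_NAC replicate 1, 2 or 3 (edgeR adjusted p = 0.086, 0.0854 and 0.0683). The Npy call was lost in the fit of those 2 groups (edgeR adjusted p = 0.0561). Without Sham_Saline replicate 1, 5 of the 9 genes were called, the added ones being Sst and Nmb, both lower, in a fit that called 37.3% of all genes. There Npy was 2.44, Gal 0.76 and Adcyap1 1.63 (edgeR adjusted p = 0.0008, 0.0149 and 7.08e-05). This contrast and the saline contrast share the Sham_Saline samples.

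Set directly against SNA_Saline, SNA_NAC differed in none of the 9 genes by edgeR, where 0 of 15730 genes were called (percent called 0) and 0 of the 9 had an unadjusted p under 0.05. DESeq2 also called 0 genes, and 314 genes had an unadjusted p under 0.05 in edgeR. Npy was -0.38 on the log2 scale, with a 95% interval of -1.18 to 0.41. Gal was -0.18 (-0.68 to 0.31) and Adcyap1 -0.0050 (-0.32 to 0.31), whose sign changed in 4 of 28 alternative fits. The Npy, Tac1, Calca and Calcb samples of SNA_NAC were all below those of SNA_Saline. That is 4 of 9 genes without overlap, against 5.63% of all genes in that direction. The 4 genes are not separate observations, since deviations from group means correlated at 0.847 to 0.932 among Tac1, Calca and Calcb. For Npy with each of these genes the correlation was 0.602 to 0.709. Calca, for example, read 1568, 1596 and 1648 CPM in SNA_NAC. Nppb had the smallest unadjusted p of the 9, 0.0568, at 18.9, 13.6 and 15.6 CPM against 22.8, 16.2 and 23.02 CPM, a log2 fold change of -0.37 (edgeR adjusted p = 1).

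Hydrogen peroxide without nerve injury left all 9 genes short of the threshold against Sham_Saline, and 0 genes in the whole table were called by edgeR (percent called 0). Adcyap1 read 175, 131 and 150 CPM in Sham_H202. Each value is above the highest Sham_Saline value, 130.1 CPM, by a margin that is small for replicate 2. The log2 fold change of Adcyap1 was 0.39 (95% interval 0.07 to 0.71) with an unadjusted p of 0.0211, the only 1 of the 9 under 0.05, and an edgeR adjusted p of 0.449 (0.39 and 0.139 without Sham_Saline replicate 1). Over all genes, 1440 had an unadjusted p under 0.05, and 2.16% were higher in Sham_H202 without overlap. DESeq2 called 4 genes, 1 higher and 3 lower, and 0 of the 9. Npy read 1.03, 1.22 and 2.70 CPM, from 8, 27 and 17 counts, at a log2 fold change of 0.53 (-0.57 to 1.63), which was 0.05 without Sham_Saline replicate 1. Gal read 18.1, 20.1 and 12.2 CPM, at -0.04 (-0.56 to 0.48), or -0.28 without Sham_Saline replicate 1, and its sign changed in 5 of 28 alternative fits. Sham_H202 replicate 3, the shallowest library, had the highest Tac1, Calca and Calcb of all 18 samples, at 451, 2136 and 188 CPM.

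Dorsal column injury in DCA was compared with laminectomy, and 0 of the 9 genes were called. In the whole table edgeR also called 0 genes (percent called 0), with 793 at an unadjusted p under 0.05, while DESeq2 called 2 genes and 0 of the 9. Npy read 0.414, 0.217 and 0.705 CPM in LAM and 0.792, 0.342 and 0.322 CPM in DCA, from 4 to 21 counts per sample. Those counts leave a 95% interval of -1.21 to 1.39 around the log2 fold change of 0.09. Gal read 7.76, 9.43 and 7.65 CPM in LAM and 10.3, 6.57 and 11.8 CPM in DCA (0.22, -0.31 to 0.75). Adcyap1 read 104.0, 102.0 and 95.4 CPM in LAM and 94.6, 104.3 and 71.4 CPM in DCA (-0.16, -0.48 to 0.16). The groups overlapped for all 3, and the sign of each turned with offsets for transcript length and GC share. Calcb was the only gene of the 9 whose groups did not overlap, at 152, 127 and 133 CPM in LAM and 126, 124 and 118 CPM in DCA, against 9.85% of all genes lower in DCA without overlap. Its log2 fold change was -0.16 (edgeR adjusted p = 0.671).

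The difference between the response to sciatic injury and the response to dorsal column injury was tested directly. For Npy it was 3.20 ± 0.77 on the log2 scale (SE; edgeR adjusted p = 0.0474) and for Adcyap1 1.79 ± 0.22 (edgeR adjusted p = 0.000498). For Gal it was 0.97 ± 0.35 (edgeR adjusted p = 0.0957), so a difference was not called. The 2 genes called of 9 stand against 1.61% of all genes, or 1.23% in that direction. The Npy call was lost in 14 of 27 alternative fits, 12 of them fits that left out a library: Sham_Saline replicate 3, SNA_Saline replicates 1 and 2, each SNA_NAC sample, Sham_H202 replicate 1, each LAM sample and DCA replicates 2 and 3. In those its adjusted p ran up to 0.159, without LAM replicate 3. The replicate block gave Npy 0.0855 and the 12 samples of both contrasts alone 0.0724. The Adcyap1 call held in all 28. Without Sham_Saline replicate 1 the differences were 2.74 for Npy, 0.72 for Gal and 1.79 for Adcyap1 (edgeR adjusted p = 0.0194, 0.0717 and 0.000888). With offsets for transcript length and GC share the Gal difference was 1.49 (edgeR adjusted p = 0.000403), in a fit that called 5.28% of all genes. The other 6 genes had differences from -0.47 for Sst to 0.29 for Calcb, the smallest adjusted p being 0.386.

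The controls of the 2 injuries were compared as well, and 0 of the 9 genes were called. Gal was 17.5 ± 5.70 CPM in Sham_Saline and 8.28 ± 0.996 CPM in LAM (SD, n = 3), with all sham samples above all laminectomy samples. Being higher without overlap held for 16.4% of all genes in this contrast, and Gal was the only 1 of the 9. Its log2 fold change was 1.08 ± 0.25 (SE; edgeR adjusted p = 0.104), which was not called. Npy was 1.12 ± 0.56 (edgeR adjusted p = 0.18) and Adcyap1 0.21 (edgeR adjusted p = 0.346). Of the 9 genes 1, Gal, had an unadjusted edgeR p under 0.05, against 4765 of all 15730 genes. By adjusted p, 0.0699% of all genes were called. Without Sham_Saline replicate 1, Gal was 1.33, Npy 1.58 and Adcyap1 0.21 (edgeR adjusted p = 0.0236, 0.0262 and 0.341), in a fit that called 31.8% of all genes. DESeq2 gave Gal an adjusted p of 0.0109 and called 6.88% of all genes. With offsets for transcript length and GC share, where 0.16% of all genes were called, Adcyap1 was 0.54 (edgeR adjusted p = 0.0454). Surgery and group cannot be told apart here, since each control belongs to its own operation.

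Across the 6 groups, mean Npy was highest in SNA_Saline (10.4 CPM) and SNA_NAC (8.00 CPM), then came Sham_H202 (1.65), Sham_Saline (1.04), DCA (0.485) and LAM (0.445). The last 4 overlapped with their neighbours in that order. Gal had the order SNA_Saline, SNA_NAC, Sham_Saline, Sham_H202, DCA and LAM, with overlap between each pair of neighbours except at the steps from SNA_NAC to Sham_Saline and from Sham_H202 to DCA. Adcyap1 had the order SNA_Saline, SNA_NAC, Sham_H202, Sham_Saline, LAM and DCA, and its neighbours overlapped except at the steps from SNA_NAC to Sham_H202 and from Sham_H202 to Sham_Saline.

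Within groups, the 4 most abundant of the genes that did not pass the test, Calca, Tac1, Calcb and Nmb, varied together. Pearson correlations of their deviations from the group means, over 18 samples, ran from 0.558 to 0.932 for the 6 pairs. Npy deviated with them too, with 0.709 for Calca, and for Adcyap1 with Calca the value was 0.109. Among the genes called after injury with saline it was 0.218 for Npy with Gal, -0.0341 for Npy with Adcyap1 and -0.325 for Gal with Adcyap1. These are descriptions, and all points share their library and its depth. The SD of Calca was 333 CPM in Sham_Saline and 352 CPM in Sham_H202, against 40.6 to 70.6 CPM in the other groups. Sham_Saline replicate 1 had the lowest Calca of the 18 samples and Sham_H202 replicate 3 the highest (1285 and 2136 CPM). Npy read 0.286 and 2.70 CPM in those libraries, the lowest and the highest of their groups. How far the correlations rest on those libraries was not tested.

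Genes whose log2 CPM followed a member most closely over the 18 samples were sought among 12990 genes with at least 50 counts on average. For Npy they were Phlda1 (Pearson r = 0.97), Pvr (0.969) and Cckbr, a cholecystokinin receptor (0.965). For Gal they were Camk1, a calmodulin-dependent kinase (0.982), Plin2, a lipid droplet protein (0.98) and Kctd11 (0.977). For Adcyap1 they were Flrt3, a cell adhesion protein (0.989), Serpinb1a, a protease inhibitor (0.987) and Rhoq, a small GTPase (0.986). Over all 18 samples the Adcyap1 matches were thus the closest of the 9 sets. For Tac1 they were Mrpl20 (0.932), Lsm3 (0.931) and Tmsb4x (0.928), for Calca Rps20 (0.913), Ranbp1 (0.911) and Tac1 itself (0.909), and for Calcb Ndufb6 (0.959), Ranbp1 (0.941) and Tmsb4x (0.938). For Nmb they were Cox7a2l (0.972), Ndufb3 (0.971) and Supt4a (0.951). Rps20 is a ribosomal protein gene, and Ndufb3, Ndufb6 and Cox7a2l belong to mitochondrial respiration. Sst and Nppb had looser matches, with Thap7 (0.828), Prrg2 (0.807) and Gas2l1 (0.804) for Sst and Psme2 (0.844), S100a13 (0.825) and S100a4 (0.821) for Nppb. All these values include the steps between groups. For deviations from the group means, in the order named, r was 0.793, 0.599 and 0.69 for the Npy matches. It was 0.935, 0.814 and 0.754 for Gal and 0.81, 0.909 and 0.785 for Adcyap1. With 0.972, 0.965 and 0.951 for Calcb and 0.976, 0.9595 and 0.967 for Nmb, the Adcyap1 set was not the closest there.

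Receptors for the 9 peptides were a list of 27 genes, of which 17 were in the table. Npy1r, a neuropeptide Y receptor, was the only member called after injury with saline, 1 of 17 higher and 0 lower, beside 2.16% of all genes called higher. It read 39.1, 26.3 and 36.7 CPM in Sham_Saline and 67.2, 70.9 and 63.9 CPM in SNA_Saline, without overlap. Its log2 fold change was 0.99 ± 0.15 (SE; edgeR adjusted p = 0.00103), and of the 28 alternative fits 1 lost the call, that of the 6 samples alone (edgeR adjusted p = 0.0907). In SNA_NAC it read 73.3, 86.5 and 80.4 CPM (1.24 against Sham_Saline, edgeR adjusted p = 0.00011). Npy1r also differed between the injuries (1.23, edgeR adjusted p = 0.00785), and read 36.1, 37.4 and 27.2 CPM in DCA. Sstr2, a somatostatin receptor with the next smallest p, was 7.21 ± 1.17 CPM in Sham_Saline and 5.07 ± 0.711 CPM in SNA_Saline (SD, n = 3; edgeR adjusted p = 0.11). The list's median log2 fold change was -0.10 after injury with saline, beside -0.03 over all genes.

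Of 18 genes for peptide processing and dense-core vesicles, all in the table, Syt4 was called after injury with saline, 1 higher and 0 lower, beside 2.16% of all genes called higher. Syt4, a synaptotagmin found on dense-core vesicles, was 481 ± 90.0 CPM in Sham_Saline and 894 ± 117 CPM in SNA_Saline (SD, n = 3; log2 fold change 0.89, edgeR adjusted p = 0.00479). In SNA_NAC against Sham_Saline 2 of 18 were called higher, beside 2.47% of all genes. They were Syt4 (0.95, edgeR adjusted p = 0.0027) and Pcsk1, the prohormone convertase that cuts many precursors. Pcsk1 was 62.5 ± 16.8 CPM in Sham_Saline, and with injury it was 96.2 ± 11.1 CPM with saline and 107 ± 0.852 CPM with N-acetyl-cysteine (SD, n = 3). Its edgeR adjusted p was 0.0583 for SNA_Saline and 0.0156 for SNA_NAC against Sham_Saline; the latter call was lost without Sham_Saline replicate 2 or 3 and without SNA_NAC replicate 2 or 3 (edgeR adjusted p = 0.0972, 0.074, 0.0583 and 0.0631). When no other groups entered the fit, that Pcsk1 call (edgeR adjusted p = 0.184) and both Syt4 calls (edgeR adjusted p = 0.121 and 0.0704) were lost. Syt4 differed between the injuries by 1.05 (edgeR adjusted p = 0.0307), a call lost in 9 of 28 alternative fits, 8 of which left out a library of Sham_Saline (replicate 2 or 3), SNA_Saline (1 or 2), LAM (any) or DCA (3), with an adjusted p up to 0.1. The list's median was 0.17, beside -0.03 over all genes.

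Of 38 other neuropeptide precursors only 9 were in the table, and 2 of these were called higher after injury with saline and 0 lower, beside 2.16% of all genes called higher. Nts, the precursor of neurotensin, read 10.7, 12.1 and 14.8 CPM in Sham_Saline and 30.8, 33.0 and 25.8 CPM in SNA_Saline. Its groups were well apart, at a log2 fold change of 1.25 ± 0.29 (SE; edgeR adjusted p = 0.0258). The Nts call was lost without Sham_Saline replicate 2 (edgeR adjusted p = 0.097) or SNA_Saline replicate 1 or 2 (0.11 and 0.118). Pthlh, the parathyroid hormone-like peptide, was 3.77 ± 0.207 CPM in Sham_Saline and 6.50 ± 0.894 CPM in SNA_Saline (SD, n = 3; log2 fold change 0.78, edgeR adjusted p = 0.00911; 0.0794 without SNA_Saline replicate 1). In SNA_NAC against Sham_Saline Pthlh was called (0.71, edgeR adjusted p = 0.0143; 0.0565 without Sham_Saline replicate 3 and 0.0742 without SNA_NAC replicate 2), and Nts was not (0.91, edgeR adjusted p = 0.0889). Pthlh also differed between the injuries (0.90, edgeR adjusted p = 0.048), a call that was lost in 16 of 28 alternative fits, 14 of which left out a library of Sham_Saline (replicate 2 or 3), SNA_Saline (1 or 2), SNA_NAC (any), Sham_H202 (1), LAM (any) or DCA (any), with an adjusted p up to 0.157. When no other groups entered the fit, Pthlh was at an edgeR adjusted p of 0.253 for SNA_Saline and 0.186 for SNA_NAC. The list's median was -0.10, beside -0.03 over all genes. In DCA against LAM, SNA_NAC against SNA_Saline, Sham_H202 against Sham_Saline and Sham_Saline against LAM, edgeR called 0 genes of any of the 3 lists.

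**Figure D5:**
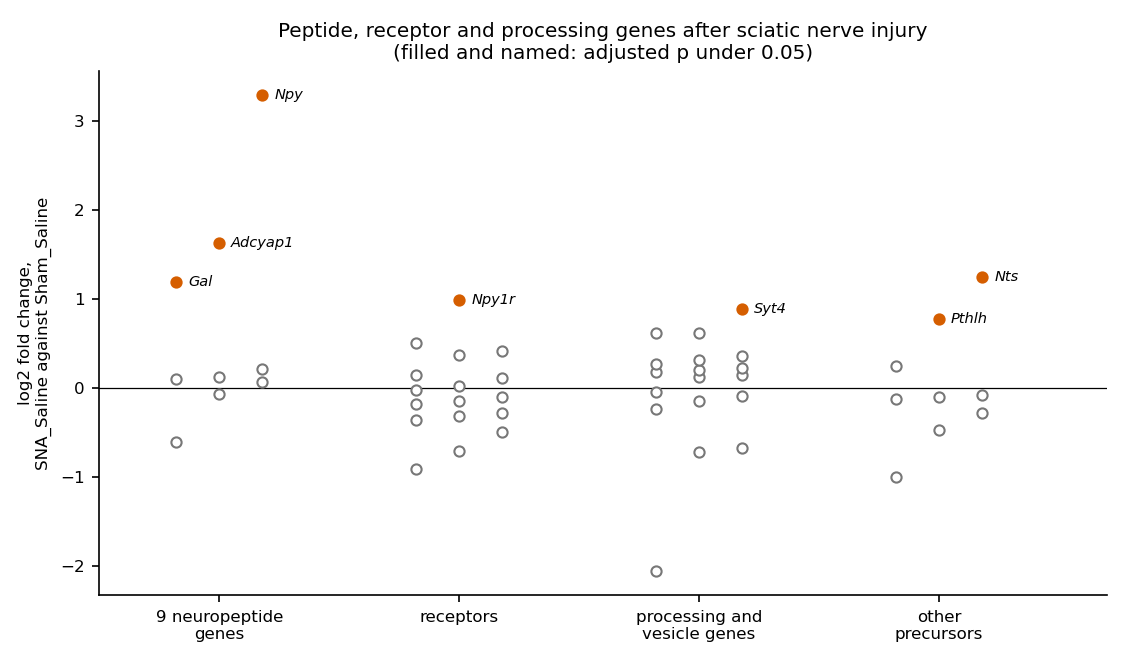
Log2 fold change of SNA_Saline against Sham_Saline (y axis) for the 9 genes and the members of the 3 lists in the table; filled, named points have an edgeR adjusted p under 0.05. Filled are 3 of the 9 neuropeptide genes, 1 of 17 receptors, 1 of 18 processing and vesicle genes and 2 of 9 other precursors. Of all genes, 2.16% were called higher.

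Markers of the neuron classes that make these peptides are given beside the peptide values. Of the 5 peptidergic nociceptor markers 0 were called after injury with saline. Their sum was 1086 to 1356 CPM in Sham_Saline and 896 to 1047 CPM in SNA_Saline, lower without overlap. The sum was also lower than in Sham_Saline without overlap in LAM (959 to 987 CPM), while DCA overlapped Sham_Saline (1020 to 1116 CPM). The 5 genes listed for itch neurons were Il31ra, Osmr, Htr1f, Cysltr2 and Jak1. They summed to 414 to 646 CPM in Sham_Saline and 469 to 553 CPM in SNA_Saline, with 0 called. Whether each is limited to these neurons was not tested. Sums of the other neuron lists were 536 to 861 and 626 to 665 CPM for non-peptidergic nociceptors, and 2957 to 3844 and 2948 to 3007 CPM for large neurons with neurofilament. The low-threshold C fibre list gave 190 to 246 CPM in Sham_Saline and 138 to 175 CPM in SNA_Saline, without overlap. LAM, at 171 to 177 CPM, also lay below Sham_Saline without overlap, and DCA, at 178 to 207 CPM, overlapped Sham_Saline. Among members of the C fibre list, Gfra2, a receptor component, fell with injury by 0.52 on the log2 scale (edgeR adjusted p = 0.0095). Th and Slc17a8 were not called. The list set up for spinal cord glia had 2 of 4 markers present. Its present markers summed to 9.77 to 14.9 CPM in Sham_Saline and 18.2 to 19.5 CPM in SNA_Saline, higher without overlap. Of these, Gfap, an astrocyte and reactive glia marker, rose by 1.58 (edgeR adjusted p = 0.00497). Gfap does not mark spinal cord glia alone, and the cells it came from were not tested. In the same order of groups, satellite glia gave 1588 to 2733 and 1677 to 2067 CPM, Schwann cells 6265 to 10306 and 7919 to 8544 CPM, and macrophages 27.6 to 40.0 and 31.3 to 36.2 CPM. The groups overlapped in all 3. Endothelium gave 41.6 to 48.9 and 38.7 to 45.05 CPM, skeletal muscle 4.82 to 886 and 16.0 to 187 CPM, and blood 245 to 840 and 278 to 708 CPM, with 0 genes of these 6 lists called. The part of these changes in the Npy, Gal and Adcyap1 values was not tested.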

How the data were processed

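RNA was sequenced from 18 pools of mouse dorsal root ganglia, 6 groups of 3. Per the labels' protocols, libraries came from a stranded mRNA kit and were read from one end, 6 to a lane on 3 lanes. The submitters' processing notes name, without roles, FastQC 0.10.1, TopHat2 2.0.12, Bowtie2 2.2.3, SAMtools 0.1.19, HTSeq 0.6.0, edgeR 3.8.6, limma 3.22.7, R 3.1.1 and mm10; whether counting used strand is not given in the sources used here. The authors deposited whole-number counts per gene, whose lowest mean over samples is 10.1, so rarer genes had been left out, and FPKM values, which here are the counts times a factor per gene and a factor per sample for all 9 genes. Total counts per sample, 6472476 to 42435331, set the precision; reads carry no molecular tags and are not independent molecules.

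Counts were tested with edgeR 4.0.16 (R 4.3.3): TMM, filterByExpr, which kept all 15730 genes, and the quasi-likelihood test, all 18 samples in 1 fit without a block, in 7 contrasts. P-values were Benjamini-Hochberg adjusted over all genes, with a threshold of 0.05. The common biological coefficient of variation was 17.4%. CPM are TMM-scaled, and a prior count of 2 entered log2 CPM. Alternatives were DESeq2 1.42.0, limma 3.58.1 on log2(FPKM + 1) and log2(FPKM + 0.1), no filter, at least 10 counts in every sample, fitting a contrast's own groups alone, the replicate block, spline offsets for the GC share and length of each transcript (5 degrees of freedom, 15648 genes), an adjusted p under 0.1 and leaving out each sample. The labels do not say that replicate pools are separate cohorts, so p-values measure the spread between these pools. An exact permutation test of 3 against 3 cannot reach below 0.1. The edgeR fit, its block and offset versions and DESeq2 were also run on simulated counts with known changes in SNA_Saline. The outcomes are not given here, and no result rests on them. Promoters are from RefSeq GRCm38.p6, loci from GENCODE M21. Figures were drawn with matplotlib 3.10.9.

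The members, lists and markers were chosen with earlier results of these data known. Named are all 9 genes, list members past the threshold (otherwise the 2 with the smallest p after injury with saline) and, per gene, the 3 nearest genes by correlation. Marker lists covered sensory neurons and their classes, sympathetic neurons, satellite glia, Schwann cells, macrophages, endothelium, skeletal muscle, blood and spinal cord glia.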

Additional observations from a re-analysis of the deposited data

Results flagged for a closer look

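The log2 response of Npy to sciatic nerve injury (SNA_Saline against Sham_Saline) exceeded its response to dorsal column injury (DCA against LAM) by 3.20 (edgeR adjusted p = 0.0474). That call was lost in 14 of 27 alternative fits, among them the replicate block (edgeR adjusted p = 0.0855), and 6 of the 18 fits that left out a library made it. Npy was higher in 3 of 3 SNA_Saline samples than in every Sham_Saline sample, while DCA and LAM overlapped. For Adcyap1 the same difference was 1.79 (edgeR adjusted p = 0.000498), called in all 28 alternative fits, with 3 of 3 injured samples above every sham sample and overlap between DCA and LAM. Both were picked out because the test of the difference itself passed the threshold. The 2 responses have different controls, Sham_Saline and LAM.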

How the results depend on the processing

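Of 1756 alternative values of the 9 genes in 7 contrasts, 1647 kept their direction and side of the threshold. Of the rest, 77 changed sign, 23 lost a call and 9 gained a call. No called value changed sign. Part of this agreement was fixed in advance: no filter equals the main fit, and the threshold of 0.1 reused its estimates. Leaving out a library outside a contrast moved values little. Npy in DCA against LAM, for example, was 0.090 in the main fit and 0.086 without Sham_Saline replicate 1. After injury with saline 3 of the 9 genes were called, 2 when only its own groups were fitted, and 2 to 3 when a library was left out, 2 without SNA_Saline replicate 1. In SNA_NAC against Sham_Saline 3 were called, 1 when only its own groups were fitted and 2 to 5 when a library was left out; the 5 came without Sham_Saline replicate 1 (Sst at -0.80, edgeR adjusted p = 0.0338, and Nmb at -0.55, edgeR adjusted p = 0.0054), a fit that called 37.3% of all genes against 3.32% with all samples. In Sham_Saline against LAM 0 were called, 1 with DESeq2, 1 with the offsets for GC share and length, and 0 to 2 when a library was left out. For the difference between the injuries 2 were called, but 1 with at least 10 counts in every sample (which removed Npy, so it has no value there), 1 when only its own groups were fitted, 1 with the replicate block, 3 with the offsets (Gal added), and 1 to 2 when a library was left out.

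With those offsets after injury with saline, Tac1 was -0.19, Calca -0.012 and Nmb 0.13 on the log2 scale, and with the replicate block added -0.18, -0.0098 and 0.13. In DCA against LAM the offsets gave Npy -0.094, Gal -0.024 and Adcyap1 0.021, and with the block added -0.051, -0.029 and 0.018. They gave Gal 0.21 in Sham_H202 against Sham_Saline, and 0.20 with the block. The replicate block alone gave Adcyap1 0.0040 in SNA_NAC against SNA_Saline. Leaving out a library gave ranges that crossed zero: after injury with saline, Tac1 -0.073 to 0.32, Calca -0.085 to 0.18, Calcb -0.0070 to 0.26 and Nmb -0.27 to 0.091; Npy -0.55 to 0.81 in DCA against LAM; Adcyap1 -0.13 to 0.076 in SNA_NAC against SNA_Saline; and Gal -0.28 to 0.13 in Sham_H202 against Sham_Saline. The cause was not tested.

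Over all genes, injury with saline gave 340 higher and 90 lower calls, 520 and 343 with DESeq2, 681 and 486 with the offsets, 65 and 0 with only its groups, and 1280 and 1268 without Sham_Saline replicate 1. SNA_NAC against Sham_Saline gave 389 and 133, 615 and 607 with DESeq2, 732 and 465 with the offsets, 67 and 1 with only its groups, and 2887 and 2974 without Sham_Saline replicate 1. Sham_Saline against LAM gave 8 and 3, 833 and 250 with DESeq2, 19 and 6 with the offsets, 1 and 0 with only its groups, and 3091 and 1918 without Sham_Saline replicate 1. The difference gave 193 and 61, 673 and 965 with DESeq2, 445 and 381 with the offsets, 107 and 11 with the block, and 1934 and 2666 without Sham_Saline replicate 1. Leaving out another library gave from 158 and 16 (SNA_Saline replicate 1) to 476 and 251 (Sham_H202 replicate 3) after injury with saline, and from 53 and 2 to 603 and 606 for the difference, at the same libraries. In SNA_NAC against Sham_Saline the fewest were 195 and 20, without Sham_Saline replicate 2. The replicate number equals the lane, and same-numbered samples are different animals, so they are not treated as pairs. Their deviations correlated from -0.647 to 0.555 over 18 pairs, and 8 of the 18 were over 0.1. Differently numbered samples ran from -0.544 to 0.692. In Sham_Saline against LAM the same-numbered pairs were at 0.244, 0.422 and 0.267, and the others from -0.301 to 0.031. The pairs reuse samples, so these values cannot decide whether lanes differ. Counts of 4 to 43 for Npy outside injured ganglia limit its contrasts there.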
